A study of Mus musculus with 8 samples.

Results

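Reactive astrocyte genes were examined in astrocytes that had lost the potassium channel Kir4.1. The set held 35 genes of 39179 gene identifiers counted: 10 pan-reactive genes, which are induced in astrocytes by many kinds of injury, 13 A1 genes, described after inflammatory stimulation, and 12 A2 genes, described after ischaemia. Members were taken as listed by name and matched to Ensembl identifiers, with no filter on their values. The members and the related lists were chosen with earlier results of these data known. The study sequenced RNA of astrocytes sorted for Aldh1l1-GFP from mouse spinal cord at postnatal days 12 to 14, on a mixed Swiss-Webster background. The 4 control libraries (S1, S2, S6 and S7) came from cre-negative animals, labelled wild-type, and the 4 knockout libraries (S3, S4, S5 and S8) from Aldh1l1-cre animals homozygous for a floxed Kir4.1 allele, called cKO here. All 8 animals or pools carried the GFP reporter, the labels do not say whether animals were pooled, and reporter and cre both use Aldh1l1 regulatory sequence. The p-values therefore measure the spread between these libraries. Where 4 values are given for a group, they stand in the order of libraries above.

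Astrocytes respond to injury, infection and ischaemia with a change of gene expression called reactivity. Cytokines of the interleukin-6 family act through the shared receptor gp130 and the transcription factor STAT3, interferons act through interferon-stimulated elements, and interleukin-1 and TNF act through NF-kB. Among the best known products are Lcn2, a secreted siderophore-binding protein, Serpina3n, a secreted protease inhibitor, and C3, the central complement component that is widely used as a marker of the A1 state. Kir4.1, encoded by Kcnj10, is the main inward rectifier potassium channel of astrocytes and sets their resting potential.

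Gene reads numbered between 13892736 and 25065686 per library. The deleted gene Kcnj10 had a mean of 1820 CPM in controls (SD 468, n = 4) and of 33.97 CPM in cKO (SD 4.64, n = 4), where CPM are counts scaled to the normalized library size, as edgeR computes them, and no library's label was contradicted. The sorted cells carried astrocyte markers at a summed 25014 to 43275 CPM in controls and 30626 to 38661 CPM in cKO over 12 genes. Of these 12, 6 had positive and 6 negative log2 fold changes, and 2 were higher in cKO at an adjusted p under 0.05 in edgeR. Aqp4 was at 1588 to 2454 CPM in controls and 3373 to 5268 CPM in cKO. Aldh1l1, whose regulatory sequence the reporter and cre use, was at 131 to 151 CPM and 244 to 350 CPM. Markers of other cells were present, with none of the matched genes at 0 in every library. Spag6l and Hba-a1 of the marker lists matched no symbol. Some markers were near the floor, such as Kcnj8 and Ccdc153, each with reads in control S6 only, at 0.220 CPM. Oligodendrocyte markers had the highest of these sums, 1585 to 3121 CPM in controls and 1056 to 2525 CPM in cKO over 12 genes, followed by oligodendrocyte precursor markers at 404 to 1192 CPM and 304 to 548 CPM over 7 genes. Microglial markers summed to 29.5 to 54.4 CPM in controls and 38.9 to 72.4 CPM in cKO over 12 genes, endothelial markers to 54.3 to 82.9 CPM and 29.9 to 72.0 CPM over 9 genes, and fibroblast markers to 124 to 648 CPM and 79.1 to 187 CPM over 8 genes. In such bulk samples fewer cells of a type and less RNA per cell cannot be told apart.

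The reactive set ranged from genes at nearly 0 to well expressed ones. Levels of different genes were compared per transcript length, as the mean FPKM over the deposited columns. Only 3 members stood above 10 FPKM: Serpina3n at 73.7, S100a10 at 35.5 and H2-D1 at 21.1 FPKM. They ranked above 94.9%, 88.4% and 79.8% of the 20452 genes with a mean over 0.1 FPKM. Cp, the copper-carrying ferroxidase ceruloplasmin, followed at 6.80 FPKM. Of the 10 pan-reactive genes 6 reached 1 FPKM, as did 7 of the 13 A1 genes and 5 of the 12 A2 genes.

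**Figure D1:**
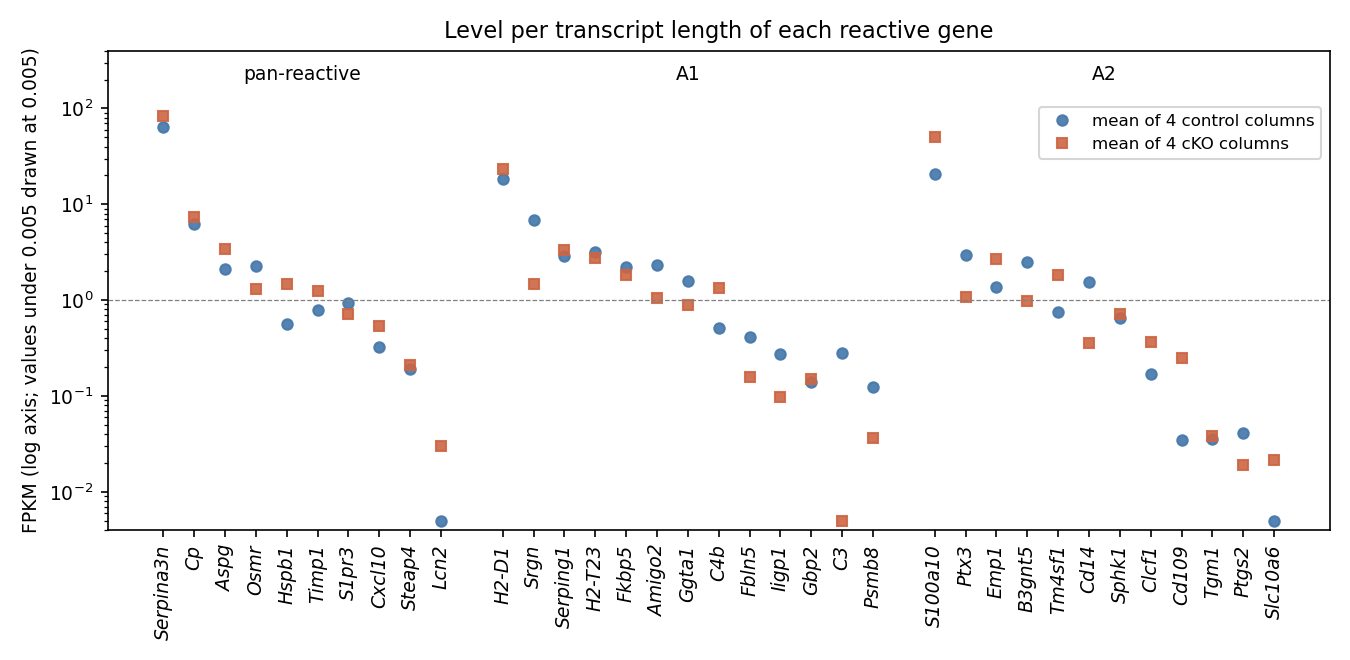
Mean FPKM of each member over the 4 control columns (circles) and the 4 cKO columns (squares), on a log axis, with classes side by side and a dashed line at 1 FPKM. Serpina3n, S100a10 and H2-D1 lead their classes, and Slc10a6 and Lcn2 have the lowest means over all columns.

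Lcn2 and C3 were at or near 0 reads in most libraries. Lcn2 had 0 counts in all 4 control libraries and 0 in 3 cKO libraries, with 1 count in cKO S3. A count of 0 allows up to 3 counts, which is 0.128 to 0.218 CPM depending on the library. C3 had 7 counts in control S1 and 14 in control S2, and 0 in control S6, control S7 and all 4 cKO libraries. At this depth a difference in Lcn2 below that floor was not detectable, and for C3 the control reads came from 2 libraries. When all genes with at least 1 count were tested, C3, lower in cKO, had an unadjusted p of 0.0133 and an adjusted p of 0.386 in edgeR. Slc10a6, a transporter of sulphated steroids, had 3 counts in all, each in cKO S8, and Psmb8, a subunit of the immunoproteasome, had 5 counts in controls and 2 in cKO.

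Of the 35 members, 22 had enough reads in enough libraries to be tested, 7 pan-reactive, 9 A1 and 6 A2. In edgeR (quasi-likelihood test, p adjusted over 14757 genes by Benjamini-Hochberg) 0 of the 22 had an adjusted p under 0.05, against 0.318% of all genes tested. At an unadjusted p under 0.05 there was 1 member, S100a10, of 22, against 9.81% of all genes tested. DESeq2 on the same counts called S100a10, which edgeR did not, and no other member, against 2.49% of its genes. Libraries of the 2 groups did not overlap for that same member, where 3.39% of all genes tested had every cKO library above every control library. Of the 22 log2 fold changes (cKO over control) 12 were positive and 10 negative, with a median of 0.13 against −0.017 over all genes tested.

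The width of the intervals bounds what these libraries could show. The 95% interval of the fold change from the edgeR fit lay within a 2-fold change in both directions for 2 of the 22 tested members, Serpina3n (0.940 to 1.80-fold) and H2-D1 (0.745 to 1.94-fold). A 2-fold rise lay outside the interval for 9 of the 22, and a 2-fold fall for 7. Standard errors of the log2 fold change ran from 0.22 for Serpina3n to 1.27 for Timp1.

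**Figure D2:**
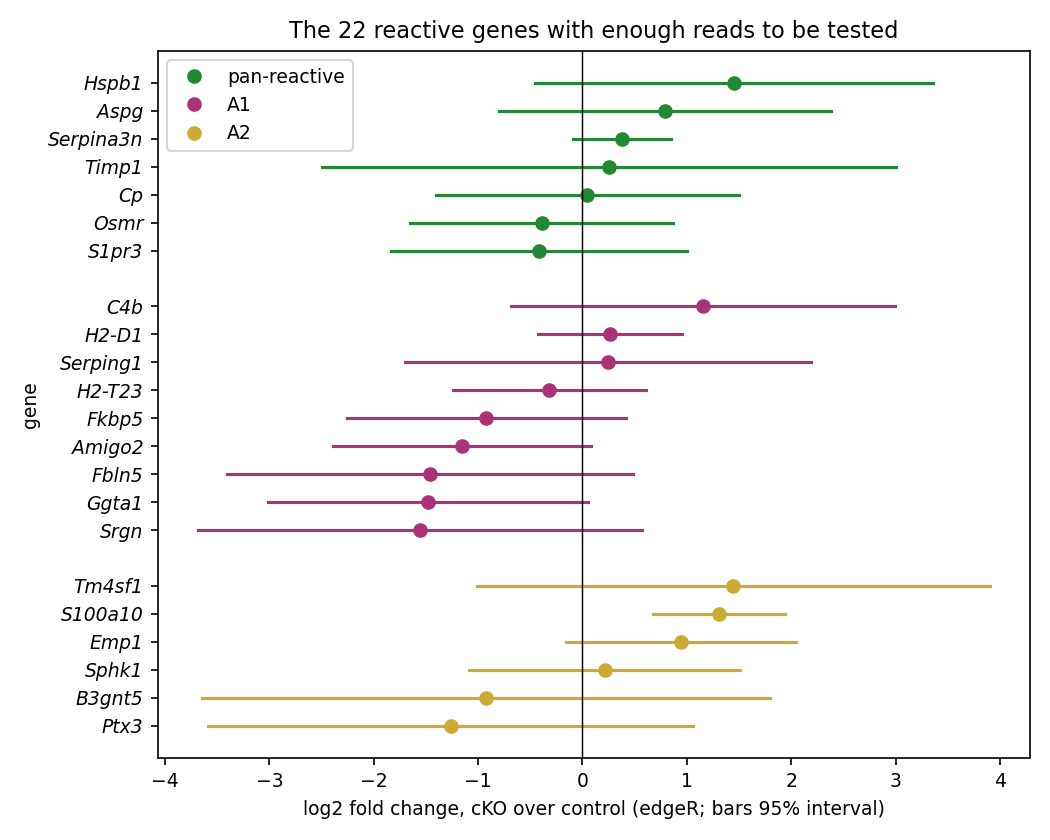
Log2 fold change, cKO over control, of the 22 tested members by class, with 95% intervals from the edgeR fit. The interval of S100a10 lies to the right of 0, and those of the other 21 members cross it.

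S100a10 encodes p11, the small calcium-binding family protein that pairs with annexin A2 at the plasma membrane, and lies on chromosome 3, 93555080 to 93564643, plus strand (GRCm38), with 4 exonic blocks. It stood at 10.6, 7.21, 7.58 and 5.78 CPM in controls and at 15.2, 25.4, 17.3 and 19.1 CPM in cKO. Every cKO library lay above every control library. The mean was 7.79 CPM ± 2.02 (SD, n = 4) in controls and 19.2 CPM ± 4.38 (SD, n = 4) in cKO, a fitted 2.47-fold difference with a 95% interval of 1.596 to 3.83-fold. The log2 fold change was 1.31 ± 0.29 (SE), and edgeR's unadjusted p was 0.000632. Its adjusted p was 0.0961 in edgeR, 0.000760 in DESeq2 run here and 0.000563 in the authors' deposited table, whose adjusted p was under 0.05 for 2.87% of its genes. The partner gene Anxa2, chosen after its values were seen, was at 4.63 CPM ± 0.734 in controls and 7.44 CPM ± 1.20 in cKO (SD, n = 4 each), also without overlap, with an adjusted p of 0.558 in edgeR.

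Emp1, a membrane protein of the PMP22 family on chromosome 6 (135362545 to 135383173), was the A2 gene with the next smallest p. It stood at 4.56, 1.46, 2.197 and 2.84 CPM in controls and at 3.88, 3.67, 8.43 and 5.31 CPM in cKO. Control S1 lay among the cKO libraries, so the groups overlapped. The log2 fold change was 0.94 ± 0.51 (SE), at an adjusted p of 0.578 in edgeR. Ptx3, the secreted long pentraxin, on chromosome 3 (66219910 to 66225805), was at 2.79, 0.437, 6.04 and 1.99 CPM in controls and at 3.17, 1.09, 0 and 0.428 CPM in cKO. The groups overlapped and the log2 fold change was −1.26 ± 1.08 (SE), which became −0.57 without control S6 and −2.44 without cKO S3.

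The other tested A2 genes overlapped between groups, and Tm4sf1 and B3gnt5 varied more from library to library than Sphk1. Tm4sf1, a tetraspanin-like surface protein, ran from 0 CPM in control S2 to 7.41 CPM in cKO S8, B3gnt5, a glycolipid-building enzyme, from 0 CPM in cKO S4 to 3.95 CPM in control S6, and Sphk1, the kinase that makes sphingosine 1-phosphate, from 1.137 CPM in control S7 to 2.61 CPM in cKO S8. Their adjusted p in edgeR were 0.730 or more. The 6 untested A2 genes were Clcf1, a gp130 cytokine, Tgm1, a transglutaminase, Cd109, a GPI-anchored TGF-beta co-receptor, Ptgs2, the inducible cyclooxygenase, Slc10a6 and Cd14, the lipopolysaccharide co-receptor. Cd109 had 1, 4, 2 and 4 counts in controls and 21, 6, 6 and 69 counts in cKO. By CPM the lowest cKO library, at 0.272, fell just under the highest control library, at 0.291. When all genes with at least 1 count were tested, Cd109 had an unadjusted p of 0.0291 and an adjusted p of 0.471 in edgeR. Of 23 counts of Ptgs2, 18 were in control S1 and 5 in cKO S3. Cd14 was at 4.22 CPM in control S7, 1.75 in control S2 and 1.28 in cKO S3, and at 0.190 CPM or less in the other libraries.

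**Figure D3:**
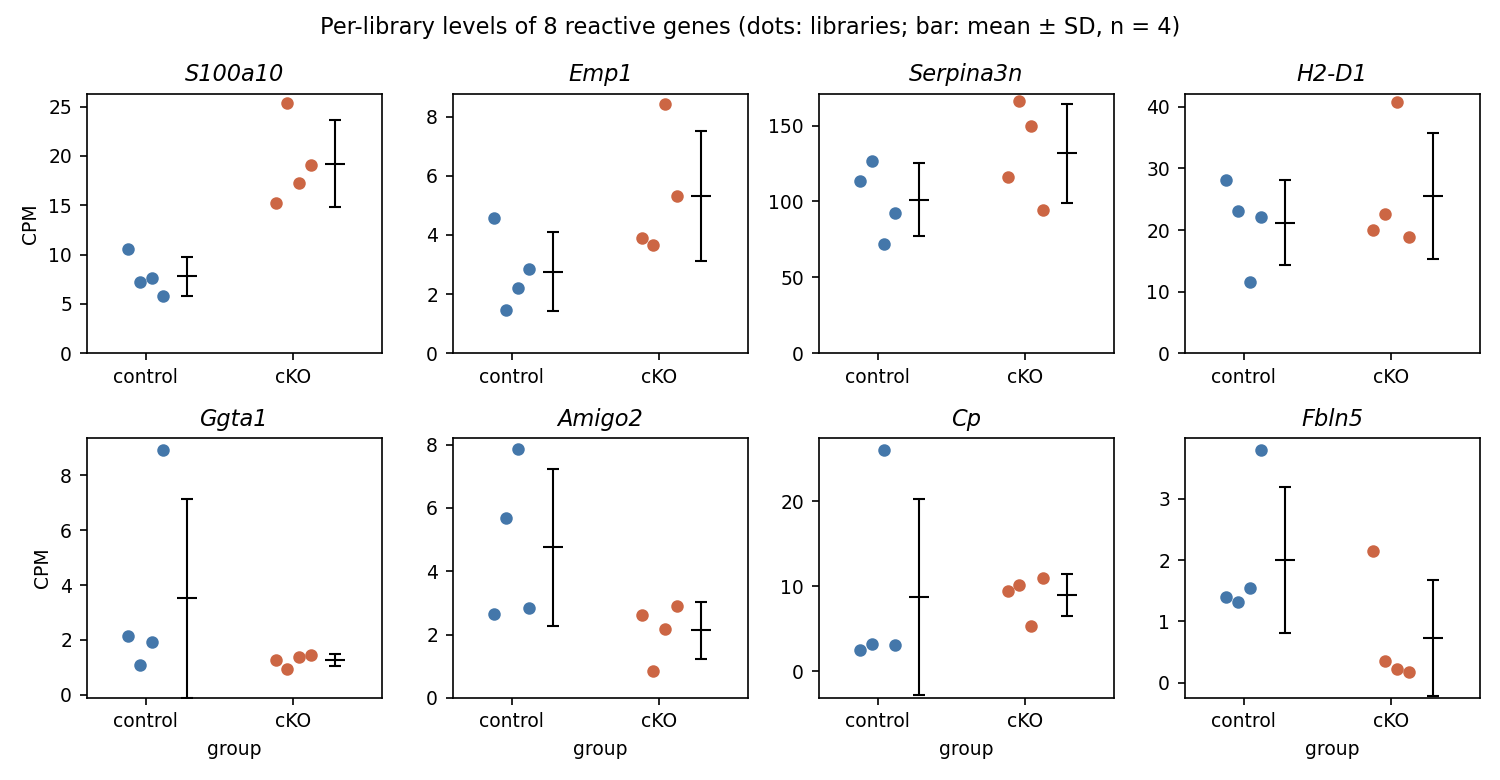
CPM of 8 members in each library (dots), with the group mean and SD (n = 4) beside them, each panel on its own linear scale. S100a10 shows 2 groups that do not overlap, whereas Cp, Ggta1 and Fbln5 each hold a single control or cKO library far from the rest of its group.

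Among pan-reactive genes Serpina3n carried 81.9% of the class's summed CPM. It lies on chromosome 12 (104406729 to 104414329) in a cluster of similar serpin genes, whose shared reads the counting may have left out. It stood at 113, 127, 71.8 and 92.6 CPM in controls and at 116, 166, 150 and 94.5 CPM in cKO. The groups overlapped, the log2 fold change was 0.38 ± 0.22 (SE), and edgeR gave an adjusted p of 0.607. Leaving out control S2 gave an unadjusted p under 0.05 for Serpina3n, as did leaving out cKO S8, with no adjusted p under 0.05.

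Cp, on chromosome 3 (19957054 to 20009145), was set by 1 library. It stood at 2.47, 3.13, 26.0 and 3.13 CPM in controls and at 9.45, 10.2, 5.36 and 10.96 CPM in cKO. Each cKO library exceeded 3 of the control libraries, and control S6 exceeded all. The log2 fold change was 0.047 with all libraries and 1.63 without control S6, where Cp passed an unadjusted p of 0.05 in edgeR with an adjusted p of 0.230. Control S6 also held the highest summed fibroblast markers, 648 CPM against 124 to 251.3 CPM in the other controls, the highest Serping1 and the highest Steap4, and the part of those cells in the Cp level was not tested. Reads of Cp are uncertain to the extent that its exons overlap Hps3 on the opposite strand, since the strand setting of the counting is not given in the sources used here.

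Aspg, an asparaginase, on chromosome 12 (112106679 to 112127559), was at 6.72, 8.01, 1.92 and 0.284 CPM in controls and at 4.39, 6.99, 12.9 and 4.84 CPM in cKO, a log2 fold change of 0.79 ± 0.74 (SE). The groups overlapped. Osmr, the oncostatin M receptor, ran from 1.77 CPM in cKO S5 to 12.1 CPM in cKO S8, so the cKO group held both ends. S1pr3, a sphingosine 1-phosphate receptor, ran from 0.513 CPM in cKO S5 to 5.71 CPM in control S6. Hspb1, a small heat shock protein, was at 0.264 CPM ± 0.220 in controls and 0.724 CPM ± 0.399 in cKO (SD, n = 4 each), or 1.45 on the log2 scale from 17 and 58 counts. Timp1, an inhibitor of metalloproteinases, was at 0.525 CPM ± 0.777 and 0.611 CPM ± 0.463 (SD, n = 4 each). The adjusted p of these 5 genes in edgeR lay between 0.628 and 0.970. The untested Cxcl10, an interferon-induced chemokine, had 29 of its 40 counts in cKO S3, and Steap4, a metalloreductase, had 33 counts in control S6, 33 in cKO S3 and 7 elsewhere.

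The A1 class was led by H2-D1, a classical MHC class I heavy chain on chromosome 17 (35262730 to 35267499). It stood at 28.1, 23.1, 11.5 and 22.1 CPM in controls and at 20.0, 22.6, 40.7 and 18.8 CPM in cKO. The groups overlapped, with a log2 fold change of 0.27 ± 0.32 (SE), and the fold change was −0.048 on the log2 scale without cKO S5. The nonclassical H2-T23, also on chromosome 17, was at 4.32 CPM ± 0.464 in controls and 3.46 CPM ± 0.701 in cKO (SD, n = 4 each). MHC class I genes resemble one another in sequence, so their counts may be uncertain, and sharing of reads between them was not tested.

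Srgn, the proteoglycan core protein of immune cell granules, on chromosome 10 (62493833 to 62527451), was at 0.951, 5.24, 3.24 and 1.09 CPM in controls and at 1.58, 1.13, 0 and 0.813 CPM in cKO. Its log2 fold change was −1.56 ± 0.98 (SE). Serping1, the C1 inhibitor of complement, on chromosome 2 (84765387 to 84775444), was at 0.887, 3.35, 9.01 and 0.142 CPM in controls and at 5.46, 4.26, 0.969 and 5.14 CPM in cKO. Both groups spanned low and high libraries, with a log2 fold change of 0.24 ± 0.90 (SE). C4b, the other tested complement gene of the class, ran from 0.146 CPM in control S2 to 4.15 CPM in cKO S8, and its reads may be split with the near-identical C4a.

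Of the 9 tested A1 genes 6 had negative log2 fold changes, and the class median was −0.92, but 0 of the 9 had an unadjusted p under 0.05 in edgeR. The pan-reactive median was 0.25 and the A2 median 0.58. Among the other cell types with at least 6 tested markers, log2 fold changes were negative for all 7 tested fibroblast markers (median −1.62), 6 of 7 oligodendrocyte precursor markers (−1.16), 8 of 9 endothelial markers (−0.74), 7 of 10 neuronal markers (−0.66), 11 of 12 oligodendrocyte markers (−0.45) and 4 of 6 mural markers (−0.15). They were positive for 9 of 11 microglial markers (0.34). The lists share genes: Pdgfra stands in the fibroblast and precursor lists, and Cspg4 in the mural and precursor lists. Some fibroblast markers were high mainly in control S6, such as Dcn at 0, 15.6, 174 and 2.23 CPM in controls. The part of these cells in the A1 levels was not tested. The 2 smallest p belonged to Ggta1 and Amigo2, chosen after their values were seen. Ggta1, which adds terminal galactose to glycans, was at 2.15, 1.09, 1.92 and 8.91 CPM in controls and at 1.28, 0.953, 1.37 and 1.46 CPM in cKO, so control S7 set the group difference. Its log2 fold change was −1.48 with all libraries and −0.44 without control S7. Amigo2, an adhesion protein with leucine-rich repeats, was at 2.66, 5.68, 7.85 and 2.84 CPM in controls and at 2.60, 0.862, 2.17 and 2.91 CPM in cKO, a log2 fold change of −1.15 ± 0.57 (SE). Its single exonic block overlaps Pced1b on the opposite strand. Their adjusted p in edgeR were 0.524 and 0.540.

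Fkbp5, a glucocorticoid-induced chaperone partner, was at 4.43 CPM ± 1.095 in controls and 2.33 CPM ± 1.74 in cKO (SD, n = 4 each), with cKO S3 and S8 within the control range and cKO S4 and S5 at 0.635 and 1.08 CPM. Fbln5, an elastic fibre protein, was at 2.01 CPM ± 1.19 and 0.727 CPM ± 0.949 (SD, n = 4 each), with cKO S3 at 2.15 CPM and the other 3 cKO libraries at 0.363 CPM or less. The untested A1 genes were C3, Psmb8 and the interferon-induced GTPases Iigp1 and Gbp2. Iigp1 had 41 counts in controls and 21 in cKO, and Gbp2 had 20 and 31.

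**Figure D4:**
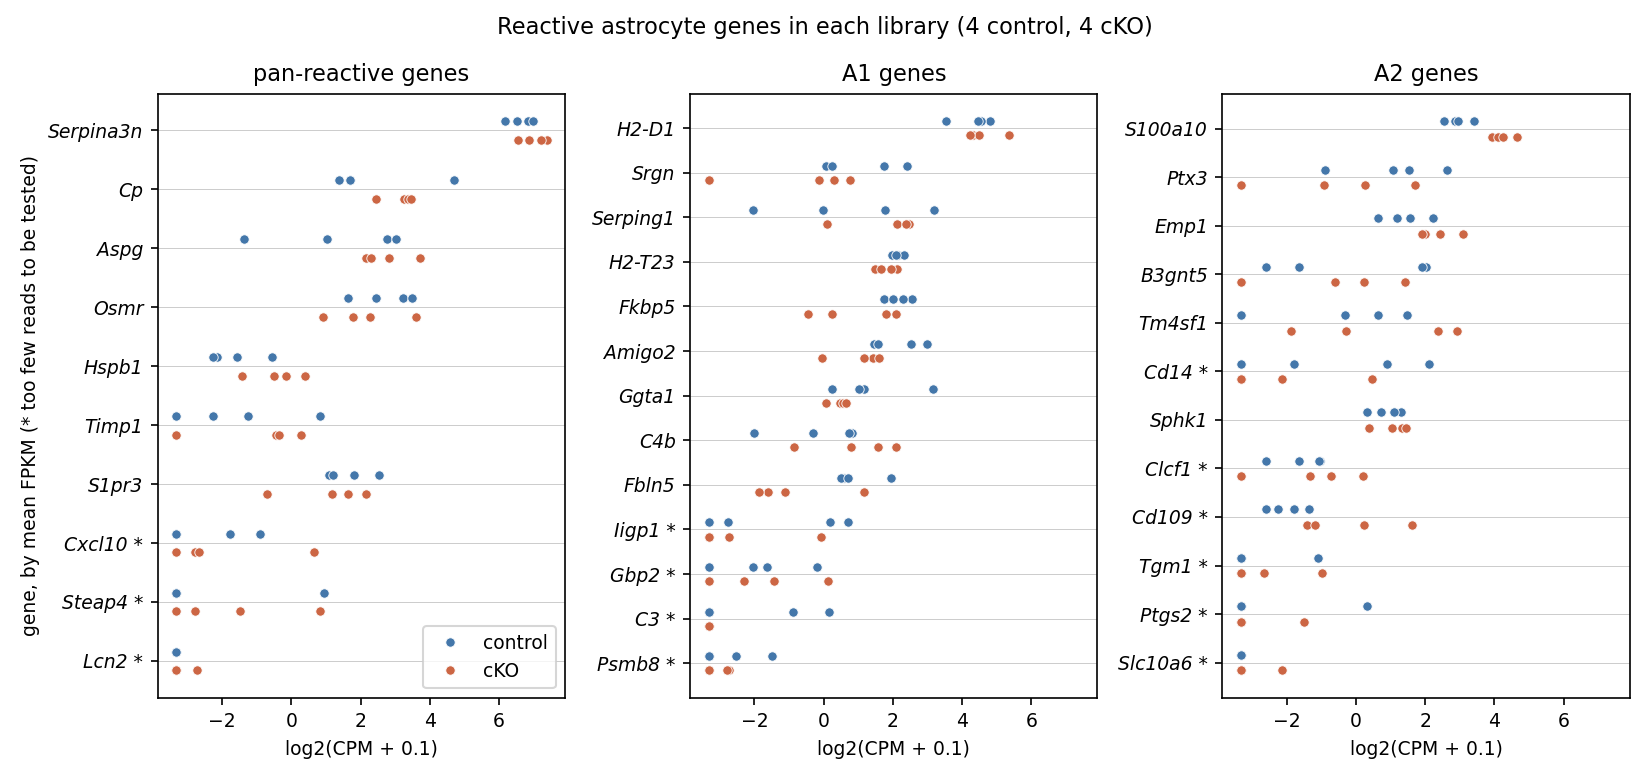
log2(CPM + 0.1) of all 35 members in each of 8 libraries, with genes ordered within each class by mean FPKM and untested genes marked by an asterisk. S100a10 is the single member whose control and cKO dots neither overlap nor share the value at 0 counts.

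Across members no library stood at the top throughout. Of 31 members with at least 20 counts in all, 8 were highest in control S6, 6 in cKO S8 and 5 in control S2, and the remaining 5 libraries were highest for 1 to 3 members each. Between 22 members (cKO S5) and 33 members (cKO S3) had at least 1 count in a library. The summed CPM of the pan-reactive genes was 111 to 146 in controls and 126 to 191 in cKO, and that of the A1 genes 46.0 to 51.7 and 36.7 to 50.04. For A2 genes the sums were 14.0 to 24.5 CPM in controls and 30.0 to 38.9 CPM in cKO, of which S100a10 made up 49.1% over all libraries. S100a10 alone had means of 7.79 CPM in controls and 19.2 CPM in cKO. The mean of log2(CPM + 0.5) over the 12 A2 genes, which weights each gene alike, overlapped between groups. It was 0.152 to 0.664 in controls and 0.252 to 1.05 in cKO.

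Related lists of genes upstream of or beside the reactive set were then examined. Their counts stand against 0.318% of all genes tested at an adjusted p under 0.05 and 9.81% at an unadjusted p under 0.05 in edgeR. In the list for gp130 cytokine and STAT3 signalling 0 of 15 tested genes had an adjusted p under 0.05 and 1 had an unadjusted p under 0.05. That gene was Socs3, the feedback inhibitor that STAT3 induces. It stood at 1.77, 1.38, 0.494 and 1.37 CPM in controls and at 3.68, 4.17, 3.76 and 5.31 CPM in cKO. The groups did not overlap, with a log2 fold change of 1.75 ± 0.57 (SE) and an adjusted p of 0.292 in edgeR. The shared receptor Il6st (225 CPM ± 7.86 in controls, 197 CPM ± 38.6 in cKO) and Stat3 (50.03 CPM ± 17.6 and 61.1 CPM ± 10.3; SD, n = 4 each) differed by −0.20 and 0.29 on the log2 scale (adjusted p in edgeR 0.747 and 0.753). The list median was 0.29.

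For interferon response and MHC class I, 0 of 21 tested genes had an adjusted p under 0.05, while 4 passed an unadjusted p of 0.05 in edgeR, of which 1 was higher and 3 lower in cKO. These were Ifi27, at a log2 fold change of 0.996, and Tapbp (−0.79), Psmb10 (−0.89) and Irf1 (−2.66), the last with 7.48 CPM in control S7 against 1.02 CPM or less in every other library. The list median was −4.15e-05. For NF-kB, interleukin-1 and TNF signalling 0 of 15 passed and 1 had an unadjusted p under 0.05, Tlr4, the lipopolysaccharide receptor, at 0.276 CPM ± 0.193 in controls and 1.90 CPM ± 0.677 in cKO (SD, n = 4 each) with an adjusted p of 0.250 in edgeR, and the list median was 0.043. Complement components and regulators had 0 of 10 at either threshold and a median of 0.17.

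The glial scar list held the only called gene of the 8 lists, which were chosen with earlier results of these data known. Of its 20 tested genes 1 rose at an adjusted p under 0.05 and 4 were higher at an unadjusted p under 0.05, Cd44 included. Cd44, the hyaluronan receptor, was at 9.51, 5.75, 9.61 and 7.96 CPM in controls and at 26.4, 32.1, 28.8 and 21.9 CPM in cKO, with an adjusted p of 0.0144 in edgeR. Vim, the intermediate filament vimentin, was at 13.4 CPM ± 5.40 in controls and 27.9 CPM ± 7.67 in cKO, with an adjusted p of 0.250 in edgeR. Gfap, the astrocyte filament used most often as a sign of reactivity, was at 214 CPM ± 69.6 in controls and 239 CPM ± 55.9 in cKO (SD, n = 4 each), or 0.16 ± 0.24 (SE) on the log2 scale. Mt2, a metallothionein, and Tagln2 were the other 2 genes, at 0.57 and 0.83 on the log2 scale (adjusted p in edgeR 0.469 and 0.502). The list median was 0.12.

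The glucocorticoid list, which bears on Fkbp5, had 0 of 12 called, 3 higher at an unadjusted p under 0.05 (Nr3c2 and Per1 among them) and 2 lower (Errfi1 and Sult1a1), with a median of 0.067. In the list of prostaglandin, sphingosine phosphate and pentraxin partners 0 of 12 were called and the median was −0.069. Ptgds, a prostaglandin D synthase, was at 2.05 CPM ± 1.80 in controls and 15.2 CPM ± 9.78 in cKO (SD, n = 4 each), with no overlap and an adjusted p of 0.205 in edgeR, and the receptor Nptxr was lower with a log2 fold change of −1.02 and an adjusted p of 0.439. Of 16 tested immediate early genes, which dissociation of tissue can induce, 0 were called and 2 were higher at an unadjusted p under 0.05, Fos (log2 fold change 1.49) and Dusp1 (0.85), with a list median of 0.20. Their part in the levels of S100a10 or Socs3 was not tested.

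**Figure D5:**
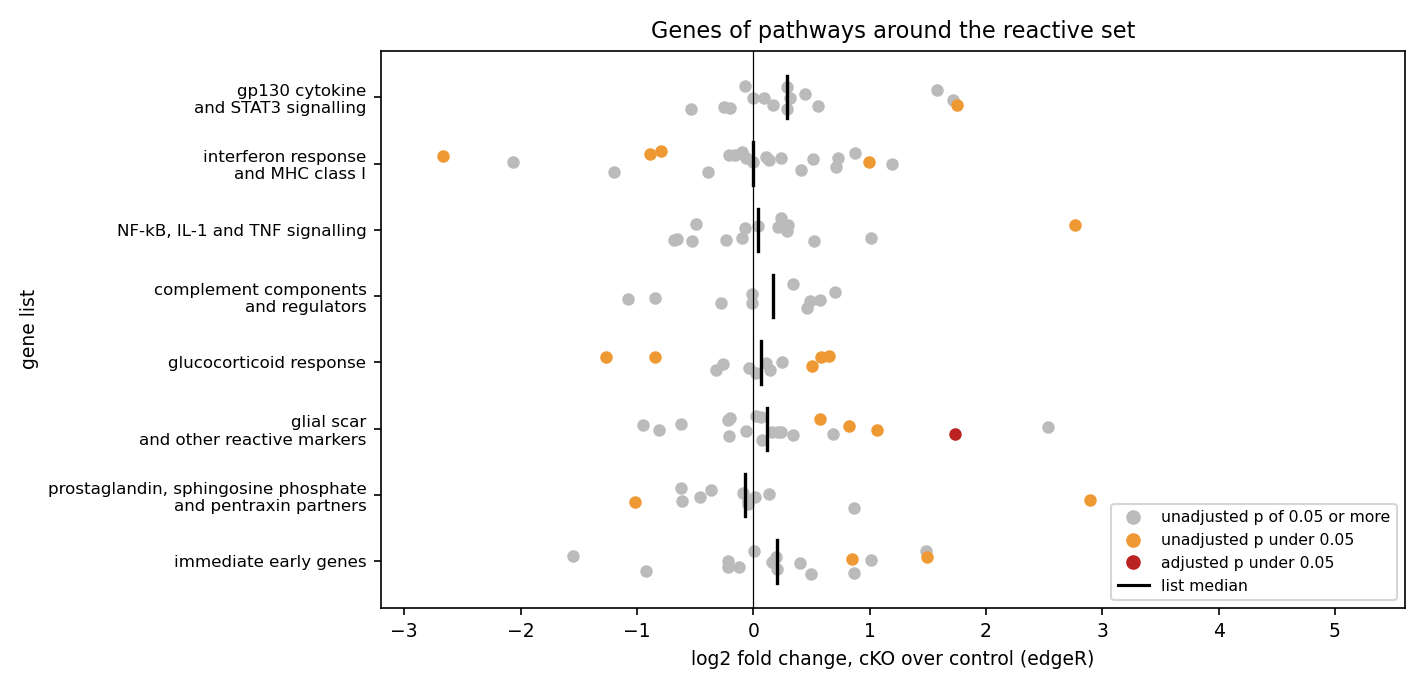
Log2 fold change, cKO over control, of each tested gene in the 8 related lists (dots, spread vertically for legibility), with the list median as a black bar. Cd44 in the glial scar list is the single gene with an adjusted p under 0.05.

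Some promoters of members hold letters that match the elements of the STAT3, interferon and NF-kB pathways. Printed are 3 stretches that hold the letters of a STAT, interferon or NF-kB element. They come from the untested Cxcl10 and Gbp2 and from Emp1, the A2 gene with the next smallest p after S100a10. Sequences are from RefSeq on GRCm38.p6, for 28 of the 35 members matched by symbol. Capitals mark matches on either strand to TTCNNNGAA (STAT), the interferon-stimulated response element (TTTC, 2 bases of any kind, TTTC) or the NF-kB motif, and overlapping matches are merged. Each stretch lies upstream of the RefSeq start site used here and is written on the gene's strand. The GENCODE gene starts differ. The Emp1 stretch lies inside the gene span given above, and the Gbp2 stretch runs past that gene's GENCODE start at 142620602.
Cxcl10, chr5:92348977-92349109, minus strand: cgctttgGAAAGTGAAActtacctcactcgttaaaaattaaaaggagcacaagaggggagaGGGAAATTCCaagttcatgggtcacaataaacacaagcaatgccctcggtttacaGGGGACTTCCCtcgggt
Gbp2, chr3:142620583-142620632, plus strand: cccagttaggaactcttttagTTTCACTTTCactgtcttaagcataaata
Emp1, chr6:135362801-135362926, plus strand: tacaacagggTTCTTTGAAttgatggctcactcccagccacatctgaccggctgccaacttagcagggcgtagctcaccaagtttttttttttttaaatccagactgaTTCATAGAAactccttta

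In Cxcl10 the first run of capitals is the interferon element on the opposite strand and the other 2 runs are NF-kB matches. Gbp2 holds the interferon element, and Emp1 holds 2 STAT matches. Over windows from 250 bases before to 50 bases after each start site, the STAT motif was in 16.2% of the 37 windows of these members against 8.30% of all 32851 windows, the interferon element in 18.9% against 3.44%, and the NF-kB motif in 21.6% against 8.46%. A match is only a run of letters. Of the 5 members with a STAT match, Emp1, Psmb8, Sphk1, Steap4 and Tgm1, only Emp1 and Sphk1 could be tested, with log2 fold changes of 0.94 and 0.21. Of the 7 with the interferon element, Cxcl10, Gbp2 and Tgm1 were untested, and Fbln5, H2-T23, Srgn and Tm4sf1 had log2 fold changes from −1.56 to 1.45 with no unadjusted p under 0.05 in edgeR.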

How the data were processed

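The authors deposited raw counts per gene for each library, FPKM per library, and a DESeq2 comparison whose headers, per the file headers, give group means of scaled counts (a signal), log2 fold changes, their standard error and Wald statistic (scores), and p-values. The submitters' processing notes name TopHat2 2.0.11, HTSeq 0.6.1p1, DESeq2 1.14.1 and Cufflinks 2.2.1 with build GRCm38, while the annotation release and strand setting are not given in the sources used here. The 5 summary lines of each count table, 56.4% to 61.7% of its reads, were left out. Counts were tested with edgeR 4.0.16 in R 4.3.3 (quasi-likelihood, TMM, filterByExpr, no covariate). Intervals are 95% intervals from the t distribution of that fit. DESeq2 1.42.0, limma 3.58.1, other scalings and filters, Xist level as a covariate and each library left out were alternatives. By their deviations across genes, 3 of 8 FPKM columns matched the count table of the same name and all 8 a library of the same group, so only group means and group tests of FPKM were used. Coordinates are from GENCODE M21. On simulated data for this comparison (14377 genes) edgeR recovered 23% of genes changed 2-fold and 64% of those changed 4-fold, so a 2-fold change is often missed.

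Per-library values are printed for members with an unadjusted p under 0.05 or groups that do not overlap, the 3 of each class with the highest FPKM, Lcn2, C3 and Ptx3, and, chosen after their values were seen, for Ggta1, Amigo2 and Cd109. From related lists, genes past the threshold, up to 4 more with the smallest unadjusted p under 0.05, and Gfap, Vim, Cd44, Stat3 and Il6st are named; a further gene of this rule is not reported here. Members and lists were chosen with earlier results of these data known. Figures were drawn with matplotlib 3.10.9 in Python 3.11.15.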

Additional observations from a re-analysis of the deposited data

Results flagged for a closer look

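In 4 of 44 groups of 4 libraries 1 library lay far from the remaining 3. For normally distributed values chance flags about 1 in 20 groups, or 2.2. Whether the CPM meet that condition was not tested. Cp was at 26.0 CPM in control S6 and at 2.47 to 3.13 CPM in the other controls. Ggta1 was at 8.91 CPM in control S7 and at 1.09 to 2.15 CPM in the other controls. Fbln5 was at 3.79 CPM in control S7 against 1.31 to 1.54 CPM in the other controls, and at 2.15 CPM in cKO S3 against 0.171 to 0.363 CPM in the other cKO libraries.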

How the results depend on the processing

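No paired analysis was possible because the groups share no replicate number. S100a10 was the only member called under any setting, by DESeq2, where members called were 1 against 0 in edgeR, and its log2 fold change stayed between 1.143 and 1.49 under all 17 alternatives, with an adjusted p between 0.0621 and 0.352 in all but DESeq2. Members at an unadjusted p under 0.05 numbered 1 of 22 tested in edgeR, 5 of 33 with DESeq2 and 3 of 22 with limma-voom. A looser filter, which kept each gene with a read somewhere, gave 3 of 35. A stricter filter, 10 or more counts per library, gave 3 of 11. Xist level as a covariate gave 2 of 22, and FPKM at a pseudocount of 1 gave 2 of 21. Leaving out a replicate gave 1 to 3 of 22 to 24, where members called were 0 in each fit. The share of all genes under this threshold is given here for edgeR only, at 9.81%. Whether members gained more than other genes under the remaining settings was therefore not tested. Genes called over the whole table numbered 47, against 384 with DESeq2, 87 and 84 with the looser and stricter filter, 28 with Xist, and 12 and 11 with FPKM at pseudocounts of 1 and 0.1. They numbered 4 to 45 when a replicate was left out: without a control, 30 (S1), 14 (S2), 16 (S6) and 40 (S7), and without a cKO library, 45 (S3), 4 (S4), 24 (S5) and 28 (S8). Leaving out a replicate turned the sign of Cp, Serping1, Timp1 and H2-D1, whose log2 fold changes then ran from −0.26 to 1.63, −0.15 to 1.45, −0.22 to 2.10 and −0.048 to 0.43. Those of Fbln5 (−1.47), B3gnt5 (−0.92) and Osmr (−0.39) became −2.95 without cKO S3, −1.85 without cKO S5 and −1.13 without cKO S8, that of Hspb1 (1.45) became 2.14 without control S2, and that of Tm4sf1 (1.45) became 2.18 without control S6 and 0.70 without cKO S8. The cause was not tested. Depth is one limit: 13 members did not have enough reads in enough libraries to be tested. Total reads alone did not decide this, since the untested Cd14 had 144 counts in all and the tested Hspb1 had 75.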

Other observations

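The deposited FPKM columns and count tables disagree on which library is which within groups. Over 9205 genes, deviations of the FPKM column named control S6 from each gene's mean followed the counts of control S7 (r 0.842, across genes, which are not independent replicates) and not those of control S6 (r 0.048), and the column named control S7 followed control S6 (r 0.850). The columns named cKO S4, S5 and S8 followed the counts of cKO S8, S4 and S5, with r of 0.838, 0.848 and 0.847. The other 3 columns followed their own library. Which of the 2 tables carries the right names was not tested, and group values are not affected.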
